A study of Mus musculus with 16 samples.

Results

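Neurexins, neuroligins and the leucine-rich LRRTM proteins are cell adhesion molecules that join the axonal and the dendritic side of a synapse. The 9 genes Nrxn2, Nrxn3, Nlgn1, Nlgn2, Nlgn3, Lrrtm1, Lrrtm2, Lrrtm3 and Lrrtm4 were taken as members, and their probes were found through the RefSeq accession that the scanner files give for each probe. The array held probes of 20124 named genes, and 16 of its 55598 probes belonged to 8 of the 9 members, while no probe was matched to Lrrtm4. Of these, 13 probes of 7 genes were well above background on at least 4 of 16 arrays and were tested among 24010 such probes. The probes of Lrrtm2 and 1 of the 2 probes of Lrrtm3 did not reach that minimum.

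Mitral cells are the output neurons of the olfactory bulb. Cells of ICR mice carried pCAG-EYFP alone, called control here, or pCAG-EYFP together with pCAG-Kir2.1, which encodes an inward rectifier potassium channel that dampens neuronal excitability. The plasmids had been introduced by in utero electroporation at embryonic day 12, so the cells of all 4 groups had been electroporated and carried EYFP from the ubiquitous CAG promoter. Fluorescent cells were picked at postnatal day 3 (P3) or postnatal day 6 (P6), and each of the 4 groups held 4 arrays. Per the labels, single-cell cDNA went through 30 PCR cycles, only cells positive by PCR for EYFP and Pcdh21 (Cdhr1) were used, and 10 cells were pooled per array. The labels call the pools biological replicates but give no number of animals, so p-values measure the spread between pools, part of which may be technical.

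Neurexins sit mainly on the presynaptic membrane, and their extracellular domains bind neuroligins and LRRTMs on the postsynaptic side, cerebellins, neurexophilins and other ligands. Alternative promoters and alternative splicing give each neurexin gene many isoforms, and splicing changes which partners bind. In the olfactory bulb, mitral cell dendrites form reciprocal synapses with the dendrites of granule cells, in which the mitral cell releases glutamate and receives GABA.

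An array had between 34.3% and 41.0% of its probes well above background, and no gene spot was saturated. All P3 arrays lay on one slide and all P6 arrays on another, and these 2 factors cannot be told apart. On each slide, control pools lay in row 1 and Kir2.1 pools in row 2, so treatment and row cannot be told apart. Cdhr1, the mitral and tufted cell marker used to keep cells, was bright on all 16 arrays, with log2 signals between 2.25 and 3.94. The probe of Kcnj2, the mouse gene of Kir2.1, was not well above background in any pool, and whether it can read the introduced cDNA is not given in the sources used here, so it checks nothing about the labels. All levels below are log2 signals after scaling to an array's 75th percentile, differences are on the same log2 scale, errors of differences are SE from limma, and adjusted p-values are from limma with Benjamini-Hochberg adjustment over the 24010 probes unless another number is given. The threshold for a call was an adjusted p of 0.05.

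A pool signal does not separate fewer expressing cells from less RNA per cell. Markers of other cell types differed between the pools. The summed linear signal of 13 bulb interneuron markers, in units of the array's 75th percentile, ranged from 2.27 to 7.66 in P6 control pools and from 0.54 to 2.67 in P6 Kir2.1 pools, against 0.491 to 0.89 in P3 control and 0.668 to 1.01 in P3 Kir2.1 pools. Between 9 and 11 of these 13 markers were well above background in P6 control pools and between 6 and 8 in P6 Kir2.1 pools. Gad1, an enzyme of GABA synthesis, was well above background in 4 of 4 P6 control and 3 of 4 P6 Kir2.1 pools. Its levels were -1.67 ± 1.60 (SD, n = 4) and -6.11 ± 2.99, and the pools overlapped. The brightest tested interneuron markers were Th, at -0.78 ± 1.54 (SD, n = 4) in control and -1.63 ± 1.29 in Kir2.1 pools of P6, and Meis2, at -0.36 ± 0.49 and -2.49 ± 1.13. The summed signal of 10 mitral and tufted cell markers ran the other way, with 10.1 to 18.4 in P6 control and 18.2 to 30.6 in P6 Kir2.1 pools, and Uchl1 and Cdhr1 were its brightest members. For 8 markers of astrocytes and radial glia, led by Fabp7 and Aldoc, the sums were 11.7 to 14.0 and 3.97 to 15.4. Sums of 7 oligodendrocyte lineage markers, with Mbp among the brightest, were 1.43 to 5.75 and 0.992 to 5.86, and those of 7 microglia markers, led by Csf1r and C1qb, were 0.434 to 2.03 and 0.194 to 0.592. C1qa, a defining microglia marker, was well above background on 1 of the 16 arrays, a P6 control pool.

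The promoters of Nlgn1 and Lrrtm1 are shown here from RefSeq, build GRCm38.p6, with 250 bases before and 50 bases after the annotated gene start. The Nlgn1 probe passed the test for age in Kir2.1 pools but not in control pools, and it entered the test only through P6 pools. The Lrrtm1 probe came closest to the threshold for Kir2.1 without passing it. The table held 10 promoters of 6 members and none of the genes Nrxn2, Nlgn3 and Lrrtm2 was matched in it. Capitals mark the E-box CANNTG and the letters TGACG, which form one side of the cAMP response element TGACGTCA, searched on both strands.
Lrrtm1, chr6:77242227-77242526, plus strand: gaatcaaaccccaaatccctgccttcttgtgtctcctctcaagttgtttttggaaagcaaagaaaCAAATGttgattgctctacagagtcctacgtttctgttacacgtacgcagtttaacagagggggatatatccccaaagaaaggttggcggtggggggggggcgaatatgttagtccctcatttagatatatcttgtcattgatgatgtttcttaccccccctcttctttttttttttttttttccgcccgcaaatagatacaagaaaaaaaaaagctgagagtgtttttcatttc
Nlgn1 promoter 1, chr3:26331860-26332159, minus strand: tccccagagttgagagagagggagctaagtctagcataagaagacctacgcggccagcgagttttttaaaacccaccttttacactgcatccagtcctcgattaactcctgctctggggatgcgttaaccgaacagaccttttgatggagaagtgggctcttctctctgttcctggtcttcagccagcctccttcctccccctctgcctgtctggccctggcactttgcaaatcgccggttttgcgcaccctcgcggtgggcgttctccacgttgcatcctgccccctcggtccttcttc
Nlgn1 promoter 2, chr3:26153937-26154236, minus strand: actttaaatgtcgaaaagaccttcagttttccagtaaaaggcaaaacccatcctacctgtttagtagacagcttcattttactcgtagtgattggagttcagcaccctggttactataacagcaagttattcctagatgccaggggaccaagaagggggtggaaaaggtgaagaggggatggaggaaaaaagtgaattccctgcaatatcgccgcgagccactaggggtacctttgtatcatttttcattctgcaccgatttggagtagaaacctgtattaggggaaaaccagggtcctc
The Lrrtm1 promoter held 1 E-box, starting at position -185 from the gene start, and no TGACG, and both Nlgn1 promoters held neither. Among all 32851 promoters of the table, 72.3% held CANNTG, 20.8% held TGACG and 1.79% held the full TGACGTCA. Of the 10 member promoters, 7 held CANNTG, 1 held TGACG (that of Nlgn2) and 0 held TGACGTCA. These matches describe letters in the sequence and were not set against any binding data.

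**Figure D1:**
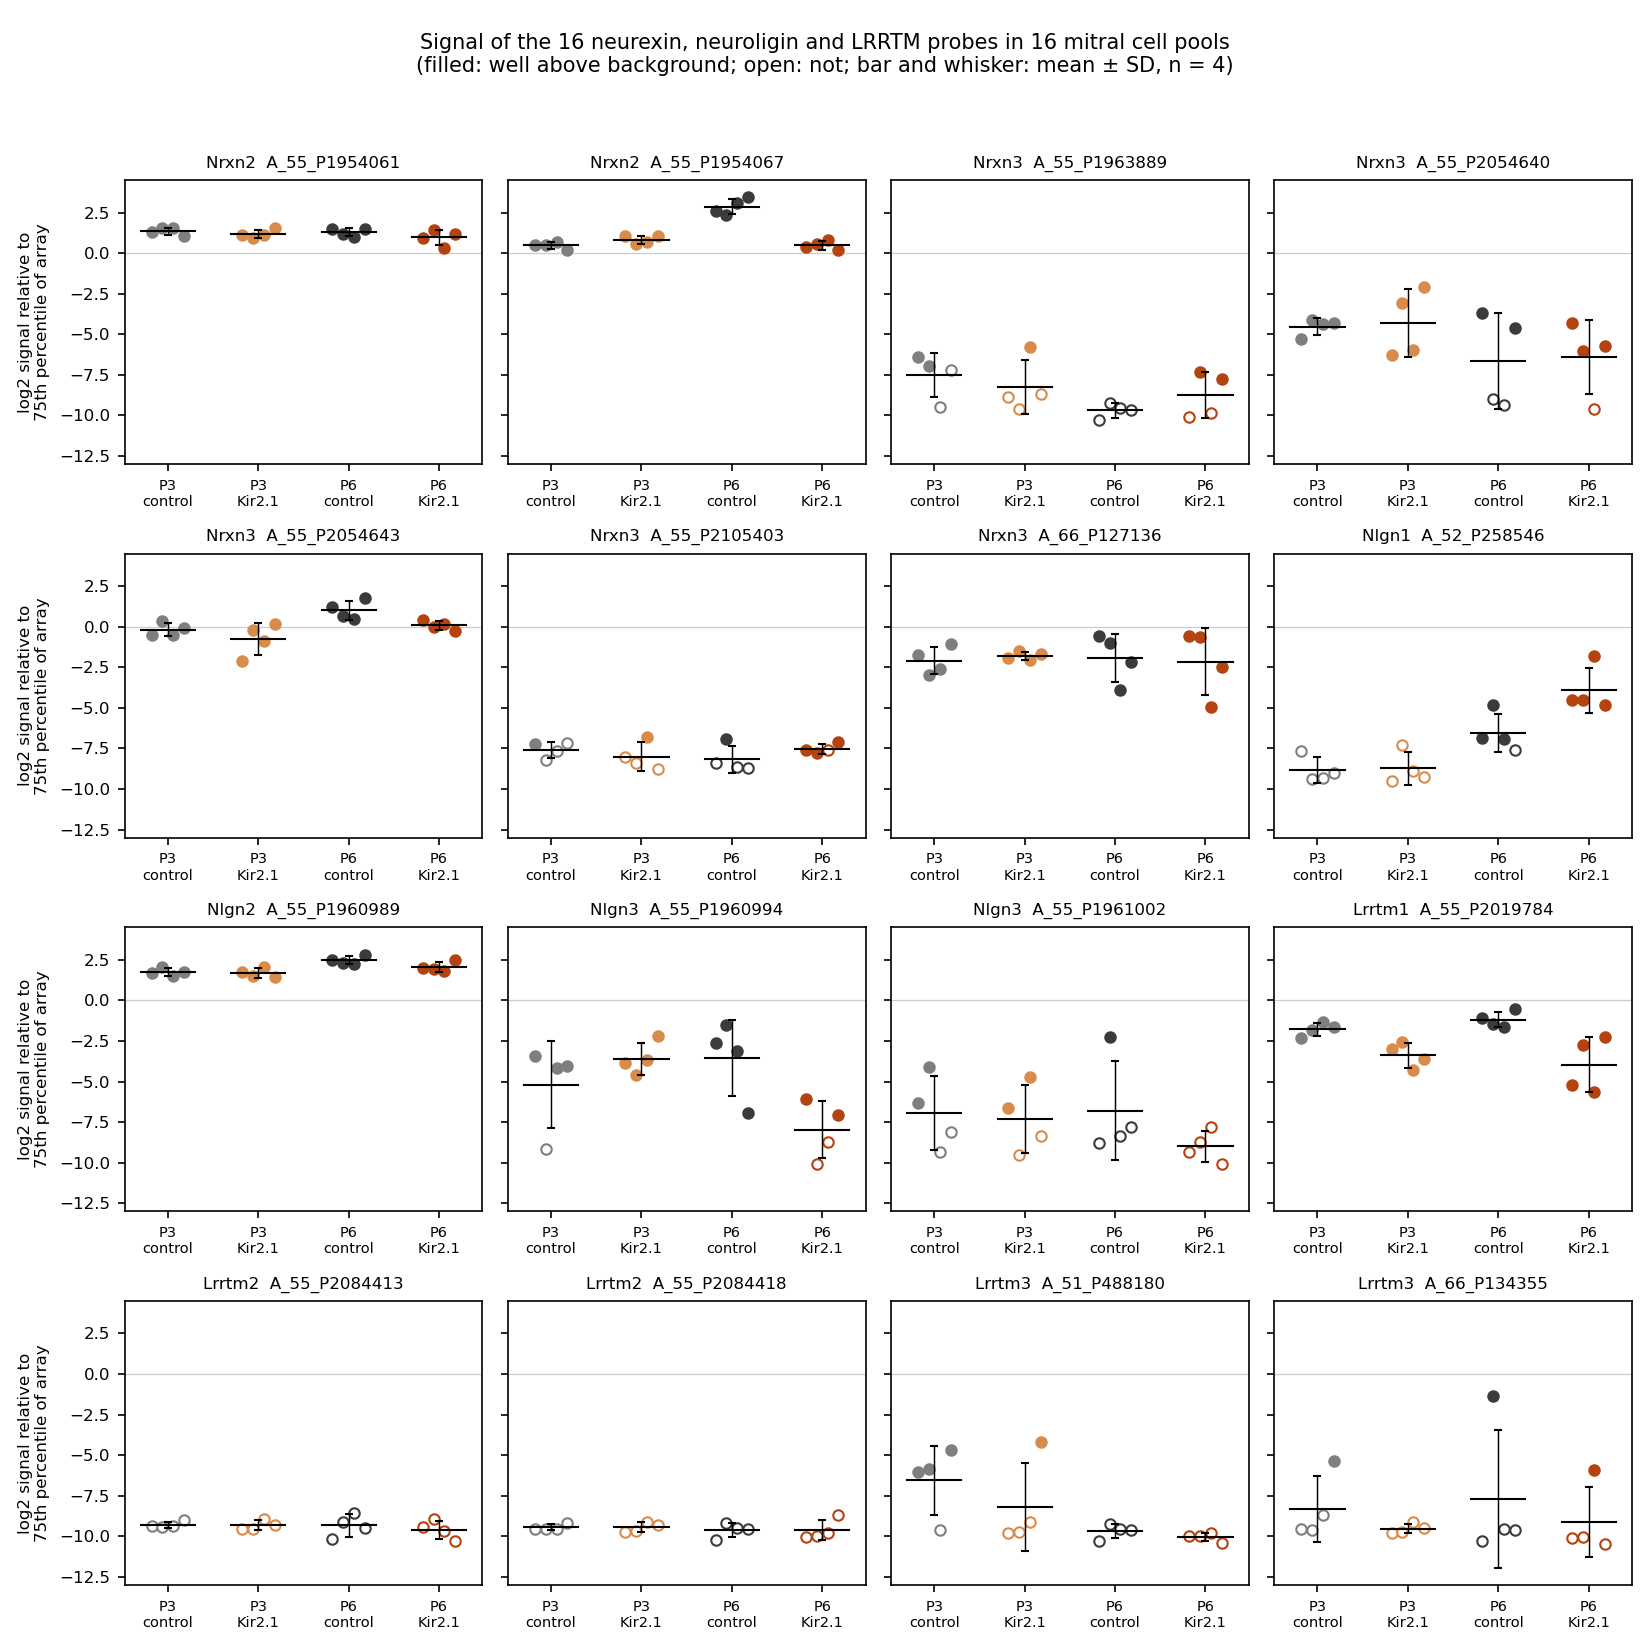
Each panel shows 1 of the 16 probes, with the log2 signal relative to the array's 75th percentile on the vertical axis and the 4 groups on the horizontal axis; each point is a pool of 10 cells, filled where the signal was well above background, and bars and whiskers give the mean ± SD of 4 pools. Nrxn2 probe A_55_P1954067 stands apart in the 4 P6 control pools, Nlgn1 is open in all 8 P3 pools, Lrrtm1 is lower in the Kir2.1 pools of both ages, and the 2 Lrrtm2 probes are open in all 16 pools.

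Of the member probes, only 1 passed the test for Kir2.1 against control at P6, and it was 1 of the 2 probes of Nrxn2, the gene of neurexin 2. Probe A_55_P1954067 read 2.62, 2.35, 3.07 and 3.43 in the 4 P6 control pools. It read 0.36, 0.54, 0.82 and 0.21 in the P6 Kir2.1 pools. At P3 it read 0.52, 0.52, 0.68 and 0.17 in control pools and 1.04, 0.58, 0.67 and 1.06 in Kir2.1 pools. Every P6 control pool lay above every pool of the other 3 groups, and those 3 groups lay within the range of 0.17 to 1.06.

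In P6 Kir2.1 pools this signal was 5.23-fold lower than in P6 control pools, a log2 difference of -2.39 (SE 0.27, adjusted p = 0.0016). That call ended in a fit of only the P6 arrays (adjusted p = 0.0776), in which 22 of the 24010 probes were called, against 386 in the main fit. From P3 to P6 the signal rose 5.27-fold in control pools, by 2.40 (SE 0.27, adjusted p = 0.0016). In Kir2.1 pools the same step was -0.36 (SE 0.27, adjusted p = 0.588), and at P3 Kir2.1 and control pools differed by 0.37 (SE 0.27, adjusted p = 0.886). The interaction of age and Kir2.1 was -2.75 (SE 0.38, adjusted p = 0.0112). The interaction call ended with scaling over all gene probes (-2.58, adjusted p = 0.061) and with the replicate number as a block (-2.75, adjusted p = 0.0644). It also ended with the mean of the interneuron markers as a covariate (-2.67, adjusted p = 0.321). With that covariate, 0 of the 24010 probes were called for the interaction, against 21 without it. The Kir2.1 difference averaged over both ages was -1.01 (SE 0.19, adjusted p = 0.0305), a mean of differences that pointed in opposite directions at P3 and P6. The call averaged over both ages ended in 10 of 16 fits without 1 array (adjusted p up to 0.0703): those without P3 control 1, 2 or 3, P3 Kir2.1 1, 2 or 3, P6 control 4, or P6 Kir2.1 1, 2 or 4. It also ended with scaling over all gene probes (adjusted p = 0.0792), the replicate block (0.0716) and the interneuron covariate (0.138). Ordered by mean level, P6 control came first at 2.87 ± 0.48 (SD, n = 4), followed by P3 Kir2.1 at 0.84 ± 0.25, P6 Kir2.1 at 0.48 ± 0.26 and P3 control at 0.47 ± 0.22, and no difference tested between 2 of the last 3 groups passed the threshold.

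The second probe of Nrxn2, A_55_P1954061, is annotated to the same RefSeq transcript and did not show this pattern. It read 1.28, 1.52, 1.52 and 1.07 in P3 control, 1.13, 0.96, 1.10 and 1.52 in P3 Kir2.1, 1.47, 1.19, 1.02 and 1.50 in P6 control and 0.95, 1.44, 0.31 and 1.16 in P6 Kir2.1 pools. All 4 groups overlapped. Its difference between Kir2.1 and control was -0.17 (SE 0.26, adjusted p = 0.959) at P3 and -0.33 (SE 0.26, adjusted p = 0.559) at P6. Its step from P3 to P6 was -0.05 (SE 0.26, adjusted p = 0.946) in control pools, and its interaction was -0.16 (SE 0.37, adjusted p = 0.922).

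The log2 ratio of the first probe to the second within an array takes out anything that scales both probes alike. The ratio was 1.15, 1.16, 2.05 and 1.94 in P6 control pools and -0.59, -0.90, 0.51 and -0.96 in P6 Kir2.1 pools, with no overlap. In P3 pools it was -0.76, -1.0, -0.84 and -0.90 in control and -0.09, -0.38, -0.43 and -0.47 in Kir2.1, again with no overlap. The mean ratio was 2.06 lower with Kir2.1 at P6 and 0.54 higher with Kir2.1 at P3, and it was 2.45 higher at P6 than at P3 in control pools. Exact two-sided permutation tests over 4 against 4 pools gave p = 0.0286 for each of these 3 comparisons, the smallest value that this design allows, and p = 0.714 for P6 against P3 in Kir2.1 pools. Adjusted over the 4 comparisons, the p-values were 0.0381 and 0.714 (exact permutation tests with Benjamini-Hochberg adjustment). The ratio was examined after the values of both probes had been seen. The 2 probes thus changed unequally, and the files used here hold no probe sequence or position that would say which exons or ends of the transcript each probe reads.

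**Figure D2:**
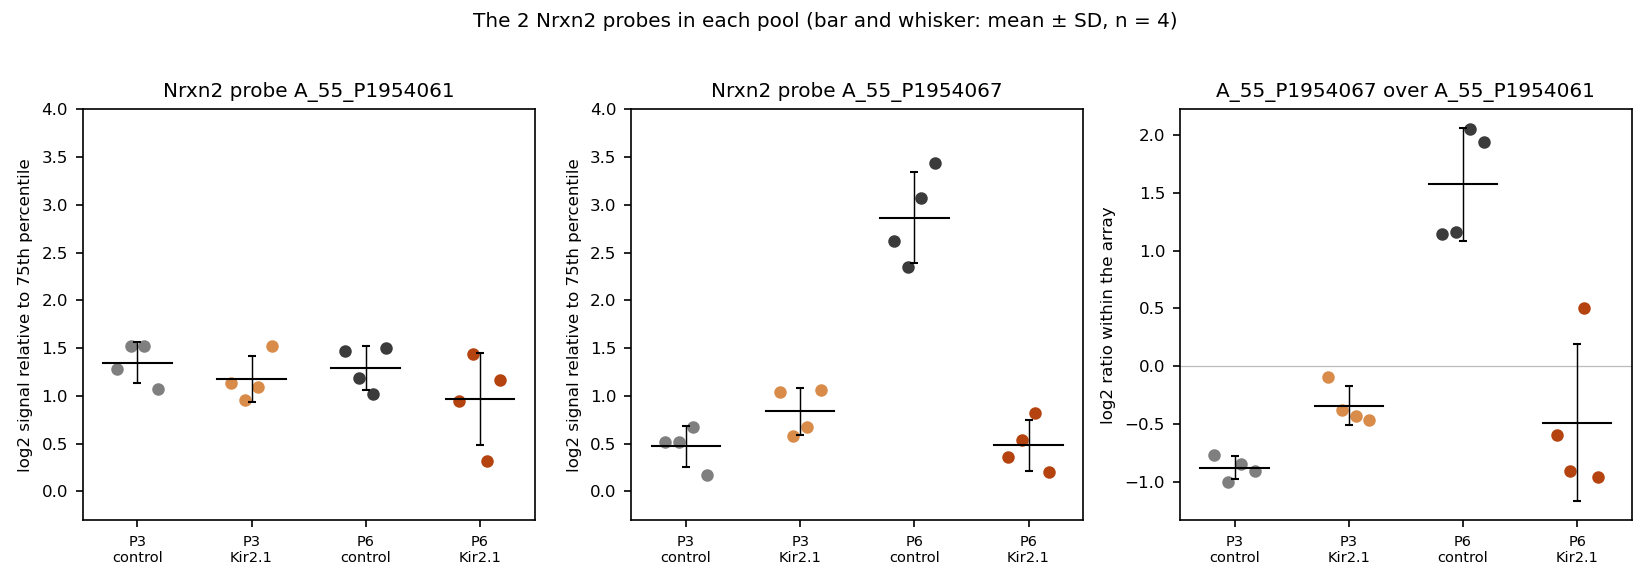
The left and middle panels show the log2 signal of each Nrxn2 probe relative to the array's 75th percentile, and the right panel the log2 ratio of the 2 probes within each array, for 4 pools in each of the 4 groups with mean ± SD. The P6 control pools of A_55_P1954067 sit between 2.35 and 3.43, above all other pools, and their ratio sits between 1.15 and 2.05, while A_55_P1954061 overlaps between all groups.

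Among 2492 genes with several tested probes, 76 had at least 1 probe called for Kir2.1 at P6, and in 66 of these 76 at least 1 other probe was not called. For P6 against P3 in control pools, the corresponding numbers were 115 and 104. Among genes with a called probe, Nrxn2 was thus one of the many in which another probe was not called, while most of the 2492 genes had no called probe.

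The summed interneuron marker signal was also higher in P6 control than in P3 pools. So was that of astrocytes and radial glia, at 11.7 to 14.0 in P6 control, 1.74 to 4.35 in P3 control and 3.53 to 10.1 in P3 Kir2.1 pools. The mitral and tufted cell sum was 10.1 to 18.4 in P6 control, 17.7 to 24.3 in P3 control and 17.3 to 23.2 in P3 Kir2.1 pools. The part of any of these markers in the Nrxn2 result was not tested. With the mean of the interneuron markers as a covariate, the Kir2.1 difference of A_55_P1954067 at P6 was -2.32 (SE 0.46, adjusted p = 0.133), and the call ended. Few calls of any gene remained in that fit: 2 of the 24010 probes were called for Kir2.1 at P6, against 386 without the covariate. Without the 2 P6 control pools brightest for Gad1 and Gad2, a choice made after seeing the data, the difference of this probe was -2.77 (adjusted p = 0.0013). The P6 control pools kept, replicates 3 and 4, still had summed interneuron signals of 2.27 and 2.53. They also read highest for this probe, at 3.07 and 3.43, so this fit is no test of the interneuron markers.

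Of the 13 tested member probes, only Nrxn2 A_55_P1954067 was called for Kir2.1 against control at P6, where 1.61% of the 24010 probes were called. At P3, 0 member probes were called by limma, where 0.0125% of all probes were called. An unadjusted limma p under 0.05 was seen for 1 member probe at P3, that of Lrrtm1, and for 4 at P6. Of the 24010 probes, 1555 and 4114 had such a p at P3 and P6. Nrxn2 A_55_P1954067 was likewise the only member probe called for the mean over both ages (0.75% of all probes), for P6 against P3 in control pools (2.3%) and for the interaction (0.0875%). In Kir2.1 pools the Nlgn1 probe was the only one called for P6 against P3 (0.833%). With 1 probe per gene, that of the highest mean level, the other Nrxn2 probe stood for the gene, and among 7 tested members 1 call remained over the 6 contrasts, Nlgn1 for P6 against P3 in Kir2.1 pools, where 0.878% of 21070 features were called. The corresponding shares of called features were 0.00949% and 1.76% for Kir2.1 at P3 and at P6, 0.712% for their mean, 2.59% for age in control pools and 0.0902% for the interaction.

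Of the other neurexin measured, Nrxn3, all 5 probes were tested, and they differed in their detection. Probe A_55_P2054643 was well above background on all 16 arrays and read -0.51, 0.37, -0.48 and -0.09 in P3 control, -2.11, -0.21, -0.86 and 0.14 in P3 Kir2.1, 1.21, 0.66, 0.46 and 1.75 in P6 control and 0.40, -0.01, 0.19 and -0.26 in P6 Kir2.1 pools. The P6 control pools lay above all pools of the other 3 groups, as with the first Nrxn2 probe, but the differences did not pass the test. They were -0.94 (SE 0.45, adjusted p = 0.301) for Kir2.1 at P6, 1.20 (SE 0.45, adjusted p = 0.178) for age in control pools and -0.76 (SE 0.32, adjusted p = 0.313) for Kir2.1 averaged over both ages. Probe A_66_P127136 was also above background on all 16 arrays and overlapped between all groups, with group means between -2.15 and -1.79. A_55_P2054640 was above background on 13 arrays, A_55_P2105403 on 6 and A_55_P1963889 on 5. All 5 probes are annotated to the same RefSeq transcript, and averaged over its 5 probes Nrxn3 differed by 0.13 (SE 0.50, adjusted p = 0.926 over genes) between Kir2.1 and control at P6.

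Nlgn1 encodes neuroligin 1, a postsynaptic partner of neurexins known mainly from glutamatergic synapses. Its probe was not well above background in any of the 8 P3 pools. At P6 it read -6.83, -4.83, -6.90 and -7.58 in control pools, of which 3 were well above background, and -4.52, -4.50, -1.83 and -4.82 in Kir2.1 pools, all 4 of them above background. The mean of the P6 Kir2.1 pools was at least 10.4-fold above that of the P3 Kir2.1 pools, where the P3 level of each array is the probe's own signal or, where higher, the dimmest signal of any probe well above background there, and the fitted difference had an adjusted p of 0.0155. The probe entered the test only through the P6 pools, 7 of which were well above background, so a difference with age followed in part from the filter, and a filter at 8 arrays removed the probe. For control pools the bound was at least 1.76-fold (adjusted p = 0.132). At P6 the lowest Kir2.1 pool, at -4.82, lay just above the highest control pool, at -4.83, and the difference was 2.62 (SE 0.76, adjusted p = 0.0934). The interaction was 2.51 (SE 1.08, adjusted p = 0.432), so the rise with age was not shown to differ between Kir2.1 and control pools. The age call in Kir2.1 pools ended without replicate 4 of P3 Kir2.1 (adjusted p = 0.0522), in a fit of only the arrays of the contrast (0.0921) and under normexp background correction, where the difference was 1.52 (0.0712).

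Nlgn2 encodes neuroligin 2, which is found at GABAergic synapses, and its probe was bright in every pool. It read 1.67, 2.07, 1.48 and 1.76 in P3 control, 1.75, 1.47, 2.06 and 1.45 in P3 Kir2.1, 2.51, 2.30, 2.24 and 2.81 in P6 control and 2.00, 1.94, 1.81 and 2.49 in P6 Kir2.1 pools. The control pools did not overlap between the ages, with a difference of 0.72 (SE 0.24, adjusted p = 0.141), while Kir2.1 and control pools overlapped at both ages. The Kir2.1 difference was -0.06 (SE 0.24, adjusted p = 0.988) at P3 and -0.40 (SE 0.24, adjusted p = 0.42) at P6.

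Nlgn3, the gene of neuroligin 3, which occurs at both kinds of synapse, varied widely between pools. Probe A_55_P1960994 read -3.44, -9.18, -4.15 and -4.04 in P3 control and -3.88, -4.58, -3.70 and -2.22 in P3 Kir2.1 pools. At P6 it read -2.60, -1.51, -3.15 and -6.93 in control and -6.10, -10.06, -8.71 and -7.07 in Kir2.1 pools, of which replicates 2 and 3 were not well above background. The P6 groups overlapped through 1 control pool, and the P6 Kir2.1 pools lay below all P3 Kir2.1 pools. The Kir2.1 difference at P6 was -4.44 (SE 1.37, adjusted p = 0.114), the age difference in Kir2.1 pools was -4.39 (SE 1.37, adjusted p = 0.156) and the interaction was -6.04 (SE 1.93, adjusted p = 0.267). None of these passed the threshold, and the SE of this probe was among the largest of the member probes. Its second probe, A_55_P1961002, was well above background on 5 arrays only, among them no P6 Kir2.1 pool.

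Lrrtm1, a postsynaptic leucine-rich protein that binds neurexins, read lower in Kir2.1 pools at both ages. Its levels were -2.32, -1.80, -1.33 and -1.65 in P3 control and -3.01, -2.59, -4.32 and -3.64 in P3 Kir2.1 pools. At P6 it read -1.09, -1.45, -1.64 and -0.55 in control and -5.22, -2.77, -5.63 and -2.24 in Kir2.1 pools. All 16 signals were well above background, and no Kir2.1 pool reached the lowest control pool of its age. Control pools lay above Kir2.1 pools without overlap at both ages in 0.225% of the 24010 probes.

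The Lrrtm1 difference was -1.61 (SE 0.67, adjusted p = 0.716) at P3, -2.78 (SE 0.67, adjusted p = 0.0558) at P6 and -2.20 (SE 0.48, adjusted p = 0.0518) averaged over both ages, a 4.59-fold lower level that did not pass the threshold. The direction held in all alternatives. The P6 difference passed the threshold in 4 of 14 alternatives other than leaving out 1 array, with adjusted p-values between 0.0229 and 0.448, and without replicate 4 of P6 Kir2.1 (adjusted p = 0.033). Its step with age was 0.59 (SE 0.67, adjusted p = 0.703) in control and -0.57 (SE 0.67, adjusted p = 0.749) in Kir2.1 pools, and the interaction was -1.17 (SE 0.95, adjusted p = 0.724). Ordered by mean level, P6 control at -1.18 ± 0.48 (SD, n = 4) and P3 control at -1.78 ± 0.41 came first, followed by P3 Kir2.1 at -3.39 ± 0.75 and P6 Kir2.1 at -3.96 ± 1.71, and the pools of the same treatment overlapped between the ages. With the mean of the interneuron markers as a covariate, the Lrrtm1 difference at P6 was -2.48 (SE 1.15, adjusted p = 0.448), and the part of those markers in it was not tested.

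Among 12034 other named genes, those whose levels over the 16 arrays were most like Lrrtm1 were Ell (Pearson's r = 0.865), Mcc (0.847), Carmil3 (0.844), Slc24a2 (0.839) and Safb2 (0.823). This is a description over pools that share slide and treatment.

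Of the other LRRTM genes, Lrrtm2 had 2 probes that were not well above background in any pool, with signals between -10.31 and -8.54. Lrrtm3 had a probe, A_51_P488180, that read -6.07, -5.88, -9.58 and -4.67 in P3 control and -9.77, -9.71, -9.11 and -4.19 in P3 Kir2.1 pools. It was well above background in 3 of the 4 P3 control pools, in 1 of the 4 P3 Kir2.1 pools and in none of the 8 P6 pools. The groups overlapped, since replicate 3 of P3 control lay within the P6 control range, and the mean of the P3 control pools was at least 2.04-fold above that of P6 control (adjusted p = 0.18, not past the threshold). The second Lrrtm3 probe was well above background on 3 arrays, in P3 control, P6 control and P6 Kir2.1.

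**Figure D3:**
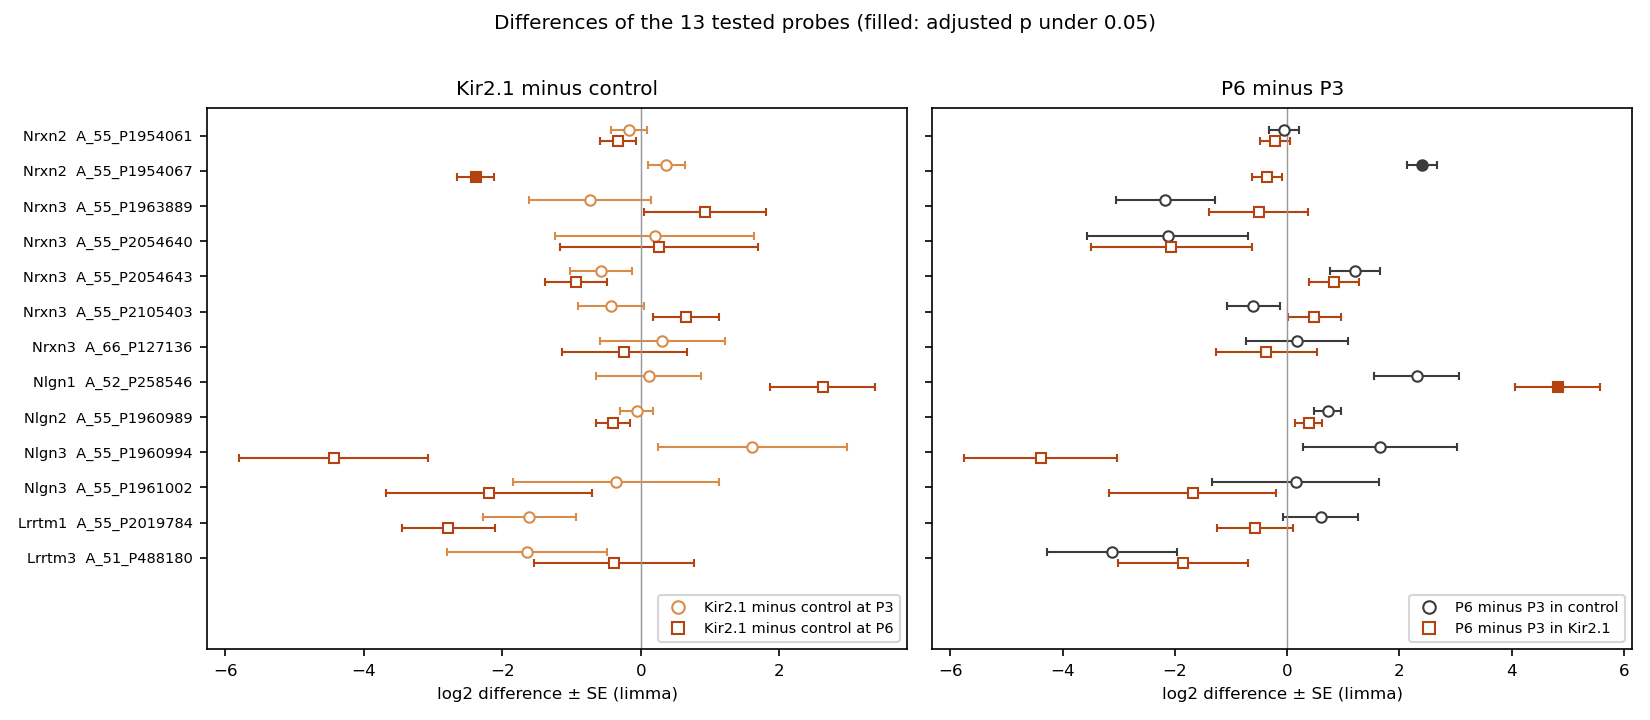
The log2 differences of the 13 tested probes with their SE from limma are shown for Kir2.1 minus control at P3 and P6 on the left and for P6 minus P3 in control and Kir2.1 pools on the right, with filled symbols where the adjusted p was under 0.05. Filled symbols are Nrxn2 A_55_P1954067 for Kir2.1 at P6 (-2.39) and for age in control pools (2.40) and Nlgn1 for age in Kir2.1 pools, whose plotted value was fitted against P3 pools not well above background and stands for at least 10.4-fold.

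Across the members, 9 of 13 probes were lower with Kir2.1 at P6 and 8 of 13 at P3, with median differences of -0.38 and -0.17, beside medians over all 24010 probes of -0.11 and -0.02. Kir2.1 and control pools did not overlap in 4 of 13 probes at P6 (8.75% of all probes) and in 1 of 13 at P3 (6.76%). P6 and P3 pools did not overlap in 4 of 13 probes in control (12.5%) and in 3 of 13 in Kir2.1 pools (10.3%). Some of these probes entered the test only through the group in which they were seen, as Nlgn1 did, so these counts describe the tested probes and not all members.

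Partners of these proteins were examined in 3 lists, with 1 probe per gene and p-values adjusted over 21070 features. The neurexin side held 23 genes, among them the cytoplasmic adaptors Cask and Apba1 and the extracellular ligands of the cerebellin and neurexophilin families, and 16 were tested. The neuroligin side held 20 genes of the postsynaptic scaffold and the neuroligin-binding Mdga1 and Mdga2, and 16 were tested. The last list held 35 other synaptic organizers, and 25 were tested. No partner of the 57 tested was called by limma for Kir2.1 at P3 or at P6, where 0.00949% and 1.76% of all features were called. An unadjusted limma p under 0.05 was seen for 7 partners at P3 and 9 at P6. Over all 21070 features, 1375 at P3 and 3678 at P6 had an unadjusted p under 0.05 by limma.

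At P6 the differences with Kir2.1 lay below 0 in 12 of 16 neurexin-side genes (median -0.59), 13 of 16 neuroligin-side genes (median -0.69) and 17 of 25 other organizers (median -0.52). Over all features, 56.3% lay below 0 and the median was -0.13. At P3 the medians were -0.01, 0.12 and -0.17, beside -0.03 over all features. From P3 to P6 in control pools, 42 of 57 partner differences lay above 0 and 15 below, where 53.3% of all features lay below 0. The list medians were 0.25, 0.84 and 0.20 beside -0.07 over all features. In Kir2.1 pools 28 of 57 lay above 0 and 29 below, where 58.6% of all features lay below 0. The medians there were -0.15, 0.12 and -0.04 beside -0.16. The comparisons within P6 and within control pools share the P6 control arrays.

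3 genes of the partner lists passed the test in a contrast. Of the 57 tested, 2 were called for age in control pools, where 2.59% of all features were called. For age in Kir2.1 pools 1 was called (0.878% of all features), and 1 for Kir2.1 averaged over both ages (0.712%). Apba1, whose product Mint1 is an adaptor of the presynaptic complex around CASK, rose 10.5-fold from P3 to P6 in control pools, from -5.88 ± 1.08 to -2.48 ± 0.49 (SD, n = 4, difference 3.40, SE 0.54, adjusted p = 0.006). Ntrk3, which encodes the neurotrophin receptor TrkC, rose 6.33-fold in the same comparison (2.66, SE 0.66, adjusted p = 0.0491). The Apba1 call held without any 1 array (adjusted p at most 0.0207) and ended with the interneuron marker mean as a covariate (2.84, adjusted p = 0.426). With that covariate, 0 of the 21070 features were called for age in control pools, against 545 without it. The Ntrk3 call ended in 14 of 16 fits without 1 array (adjusted p up to 0.14), all but those without P6 Kir2.1 3 or 4. Ntng1, which encodes the membrane-anchored ligand netrin-G1, rose 9.32-fold with age in Kir2.1 pools (3.22, SE 0.60, adjusted p = 0.0296) and was lower with Kir2.1 averaged over both ages by -2.0 (SE 0.42, adjusted p = 0.0498). The age call of Ntng1 ended without P3 Kir2.1 1, 3 or 4 or P6 Kir2.1 4 (adjusted p up to 0.0765), and its call over both ages ended in 13 of 16 fits without 1 array (adjusted p up to 0.106), all but those without P3 control 3, P6 control 3 or P6 Kir2.1 3. Ntng1 stood at -1.59 ± 0.80 and -4.39 ± 0.51 in P3 control and Kir2.1 pools, which did not overlap, and at 0.04 ± 0.39 and -1.17 ± 1.42 in those of P6, which did.

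Among the partners with the lowest p for Kir2.1, Nxph4, a neurexophilin ligand of neurexins, lay higher in Kir2.1 pools without overlap at both ages, by 1.10 (SE 0.50, adjusted p = 0.744) at P3 and 1.94 (SE 0.50, adjusted p = 0.064) at P6. It was named for its low p at P6, so its separation there follows in part from that choice. Kir2.1 and control pools did not overlap, in either direction, in 6.76% of the 24010 probes at P3 and in 8.75% at P6. Clstn3, a calsyntenin that binds neurexins, differed by -1.08 (adjusted p = 0.586) and Cbln1, a secreted cerebellin, by -0.78 (adjusted p = 0.663) at P3, and Dag1, the gene of dystroglycan, by -1.97 (adjusted p = 0.184) at P6. On the neuroligin side, the scaffold gene Shank1 differed by 0.51 (adjusted p = 0.847) at P3. At P6 the scaffold gene Dlgap4 differed by -0.89 (adjusted p = 0.115) and Mdga2, which masks neuroligins from neurexins, by -1.43 (adjusted p = 0.135). Of the other organizers, Tenm2, a teneurin ligand of latrophilins, differed by 3.98 (SE 1.83, adjusted p = 0.758) at P3. Lrfn4 differed by -1.93 (adjusted p = 0.078) and the receptor phosphatase gene Ptprd by -1.06 (adjusted p = 0.144) at P6. None of these passed the threshold.

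**Figure D4:**
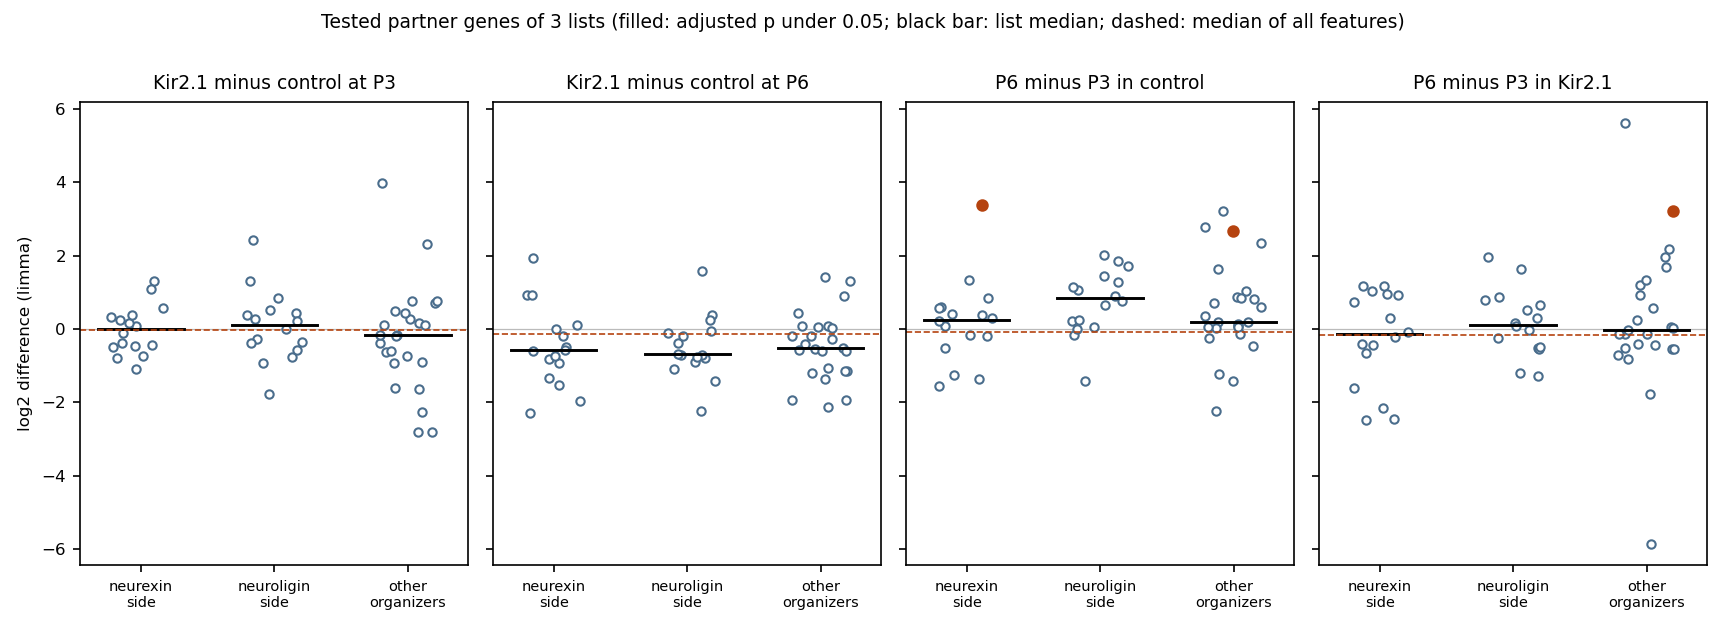
Log2 differences from limma of the 57 tested partner genes are shown by list for 4 comparisons, filled where the adjusted p was under 0.05, with the list median as a black bar and the median of all features dashed. At P6 the medians with Kir2.1 lie between -0.69 and -0.52, and filled points are Apba1 (3.40) and Ntrk3 (2.66) for age in control pools and Ntng1 (3.22) for age in Kir2.1 pools.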

How the data were processed

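The arrays were 1-colour Agilent arrays per the file headers, and the submitters' processing notes name Agilent Feature Extraction 10.7.3.1 as the reader. Deposited scanner tables hold the processed spot intensity, background-subtracted and linear, and the deposited value table of the series holds the same intensity relative to the array's 75th percentile as a signal, as its ratio to the scanner values showed. Control and outlier spots were left out, and log2 intensities were averaged per probe. Of 55681 probes, 83 were dropped because an array had outliers on each of their spots. Symbols came from RefSeq accessions (GRCm38.p6), with 26546 of 28116 accession probes named. For scaling, the 75th percentile of an array was taken over those 12103 probes that were well above background in every pool, since most probes were not detected. Probes well above background on at least 4 arrays were tested with limma 3.58.1 (R 4.3.3, lmFit and eBayes) on all 16 arrays as 4 groups, with 12 residual and 1.64 prior degrees of freedom, once per probe (24010) and once with the probe of highest mean per gene (21070, 12035 of them named genes). The number of arrays limits the precision.

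Replicate numbers did not pair the pools: over 24 same-number pairs the correlation of deviations from group means ran from -0.028 to 0.031. The highest correlation between 2 arrays was 0.881, so none was counted as a duplicate.

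The genes, partner lists, markers and tests were chosen with earlier results of these data known. Text names every member with all its probes, the partner genes past the threshold, the 2 partners of each list with the lowest p for Kir2.1 at each age, the 5 genes most like the member with the lowest p at P6, the 2 brightest tested markers of each list and the label checks Cdhr1 and Kcnj2; 2 genes that this rule names are not reported here. Alternatives were another scaling, quantile normalization, normexp (on the median spot signals, as the files hold no mean signals), the deposited value table, other filters, a floor, limma's trend, array weights, only the arrays of a contrast, the mean of a gene's probes, the replicate number as a block, and leaving out arrays. The fit with 1 probe per gene was tested on simulated data. Simulated log2 differences of size 1, 2, 4 and 6 for Kir2.1 at P6 were called in 4, 17, 37 and 37 of 50 features each. Most differences of size 1 or 2 were thus missed. The interneuron covariate and the sets of left-out control pools were chosen after seeing the data. Python 3.11.15, SciPy 1.17.1 and matplotlib 3.10.9 were used for permutation tests and plots.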

Additional observations from a re-analysis of the deposited data

Results flagged for a closer look

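In 7 of 49 groups of 4 pools in which a member probe was seen at all, 1 pool stood apart from the other 3 (Dixon's test). Chance gives about 1 in 20 groups where values are normally spread. Groups with 1 detected pool beside 3 near background are not, so 7 of 49 cannot be set against that rate. Among the 7 groups were the Nlgn1 probe in replicate 3 of P6 Kir2.1 at -1.83, Nlgn3 A_55_P1960994 in replicate 2 of P3 control at -9.18 and Nlgn3 A_55_P1961002 in replicate 2 of P6 control at -2.28. Nrxn3 A_55_P2105403 stood apart in replicate 2 of P6 control at -6.91, and Lrrtm3 A_51_P488180 in replicate 4 of P3 Kir2.1 at -4.19. The second Lrrtm3 probe, A_66_P134355, did so in replicate 2 of P6 control at -1.35 and in replicate 3 of P6 Kir2.1 at -5.91. In most of these groups the other pools were near background and 1 pool of 10 cells carried the signal. The Kir2.1 difference of Nrxn2 A_55_P1954067 differed between P3 and P6, with an interaction of -2.75 on the log2 scale (limma, adjusted p = 0.0112).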

How the results depend on the processing

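Of 1-probe-per-gene calls of members, the count for Kir2.1 at P6 moved from 0 to 1 with normexp background correction, a filter at 8 arrays and limma's trend (Lrrtm1 each time), to 1 with the mean of a gene's probes (Nrxn2) and to 2 with a floor on dim signals (Lrrtm1 and Nlgn1). For the mean over both ages it moved from 0 to 1 (Lrrtm1) with scaling over all gene probes, quantile normalization, normexp, the filter at 8 arrays, the floor, the trend and array weights. For age in control pools it moved from 0 to 1 with normexp and the trend (Nlgn2) and with the mean of probes (Nrxn2). For age in Kir2.1 pools it moved from 1 to 0 with normexp, with the filter at 8 arrays, which removed the Nlgn1 probe, and with only the arrays of the contrast. Leaving out 1 array at a time gave 0 to 1 calls in these contrasts except age in control pools, which stayed at 0: without replicate 4 of P6 Kir2.1, Lrrtm1 passed at P6; without that array, replicate 2 of P6 Kir2.1 or replicate 3 of P6 control it passed in the mean over both ages; and without replicate 4 of P3 Kir2.1, Nlgn1 was lost. Over all contrasts 5 member probe calls were made, 8 with the trend, 3 with the replicate number as a block and 1 with the interneuron covariate. Under the replicate block, Nrxn2 A_55_P1954067 lost the interaction (-2.75, adjusted p = 0.0644) and the mean over both ages (-1.01, adjusted p = 0.0716) and no other member call was lost. The values gave no sign that pools of the same number belong together. The median correlation of deviations was 0.0039 for same-number pairs and 0.0011 for other pairs, and 4 of 16 arrays correlated best with their own number. The P6 call of Nrxn2 A_55_P1954067 ended in a fit of only the arrays of the contrast (-2.39, SE 0.34, adjusted p = 0.0776) and with the covariate. Of the 24010 probes, 22 and 2 were called for Kir2.1 at P6 in these fits, against 386 in the fit of all 16 arrays without it. With the covariate, 0 probes were called for age in control pools or for the interaction, and 65 for the mean over both ages. Scaling over all gene probes ended the interaction call of Nrxn2 A_55_P1954067 (-2.58, adjusted p = 0.061) and its mean over both ages (-0.88, adjusted p = 0.0792), and the covariate ended its remaining calls, with adjusted p-values from 0.138 to 0.321. Leaving out 1 array kept its P6, age and interaction calls (adjusted p at most 0.0407), while its mean over both ages was lost in 10 of 16 such fits (adjusted p up to 0.0703): without P3 control 1, 2 or 3, P3 Kir2.1 1, 2 or 3, P6 control 4, or P6 Kir2.1 1, 2 or 4. The cause of these changes was not tested. Partner calls numbered 4 over all contrasts, 8 with normexp, 7 with the trend, 2 with no filter, 2 with the replicate block, 2 without the P6 control pools brightest for Slc1a3 and for Olig2, 1 with the covariate and 1 to 4 when 1 array was left out: 1 without P3 Kir2.1 4, and 2 without P3 control 1 or 2, P3 Kir2.1 3, P6 control 1 or 4, or P6 Kir2.1 1, 2 or 4. Under the replicate block Ntng1 lost its age call (adjusted p = 0.0734) and its call over both ages (0.117). The differences of Nrxn2 A_55_P1954061, none of them called, turned sign for age in control pools with quantile normalization (0.036) and normexp (0.074) and for the interaction with scaling over all gene probes (0.012). With 1 array left out they ran from -0.14 to 0.039 for age in control pools, from -0.37 to 0.0065 for age in Kir2.1 pools and from -0.32 to 0.059 for the interaction. Signals near background and 4 pools per group limit what these arrays can resolve.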

Other observations

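As a description over the 16 pools, which share slide and treatment, the highest correlations between the gene-level probes of the members were those of Nrxn2 A_55_P1954061 with Lrrtm1 (Pearson's r = 0.653) and of Nrxn3 A_55_P2054643 with Nlgn2 (0.603), and the lowest was that of Nrxn2 A_55_P1954061 with Nlgn1 (-0.589).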
